A study of Mus musculus with 16 samples.

Results

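Proprioceptors that carried *Tox* at postnatal day 1 (p1), the presumptive back-muscle type, made up 124 of 302 proprioceptors and 124 of 576 wells of this age. *Tox* codes for a nuclear protein of the HMG-box family and was used by the study, with *Epha3*, as a marker of neurons that innervate back muscles. A well was taken as a proprioceptor when it held at least 5000 UMIs, a mitochondrial share below 20%, at least 1 UMI of each of *Pvalb*, *Etv1* and *Ntrk3*, at least 300 CPM of *Etv1* and less than 200 CPM of the glia genes *Apoe* and *Fabp7* together. It was a member when it also held at least 20 CPM of *Tox* and less than 50 CPM of *Gabrg1*. A UMI is a tag that marks 1 captured mRNA molecule, and CPM is UMIs per 1000000 UMIs. The members were set against 154 proprioceptors of the same libraries with no *Tox* UMI. Neurons that expressed *Tox* can be among these 154, above all in the 35 wells with fewer than 20000 UMIs. The comparison group may therefore hold neurons of the presumptive back type. Of the remaining 24 proprioceptors, 16 held *Tox* below the limit and 8 passed the limits of both *Tox* and *Gabrg1*.

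Neurons of dorsal root ganglia were isolated by their tdTomato signal and sequenced one to a well with CEL-Seq2, in 6 libraries of 96 wells at p1 and 10 at embryonic day 15.5 (e15.5, 960 wells). At e15.5 the neurons came from PvtdTom mice, in which the parvalbumin promoter drives tdTomato. At p1 the labels give 2 kinds of mice together, Trpv1Cre; PvFlp; Ai65 and PvCre; Ai14: the first needs both a Cre and a Flp recombinase to switch on tdTomato, so only cells with a history of *Trpv1* and of parvalbumin expression glow, while the second marks any cell with parvalbumin expression. The labels give neither the mouse line nor the spinal level of a library, nor the number of animals in it. Line, level and library therefore cannot be told apart here, and all libraries of an age form 1 group. The p-values measure the spread, across libraries, of the difference within a library.

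Proprioceptors are the sensory neurons that report muscle length and tension from muscle spindles and Golgi tendon organs to the spinal cord. Each one innervates a given muscle and contacts the motor neurons that serve it. During development, ephrin ligands and their Eph receptors guide axons by contact, and Hox and homeodomain transcription factors set identity along and across the body axis.

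The members' *Tox* level, which the rule chose, ran from 20.3 to 247 CPM with a median of 71.4 CPM, or 1 to 26 UMIs with a median of 3, and 30 members passed on a single *Tox* UMI. Just inside the limit lay a well at 20.3 CPM and just outside one at 19.7 CPM. The member with the most *Gabrg1* held 48.4 CPM, and the lowest well put out for it held 57.3 CPM, while 84 members held no *Gabrg1* UMI. Over the summed members of a library, *Tox* stood at 85.6, 42.7, 161, 70.8, 71.4 and 69.7 CPM in libraries 1 to 6. Library 3 was highest on 13 UMIs in all and library 2 lowest.

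**Figure D1:**
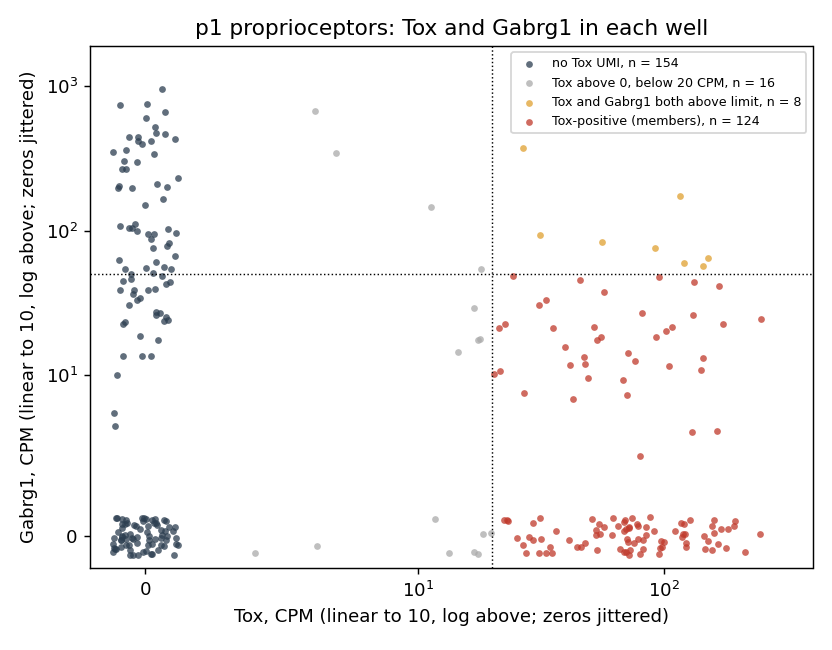
*Tox* (x axis, CPM) against *Gabrg1* (y axis, CPM) in each of the 302 p1 proprioceptors, 1 point a well, with both axes linear to 10 and logarithmic above and zeros spread for visibility. Dotted lines mark the limits of 20 and 50 CPM, and the 124 members fill the lower right field while the 154 wells with no *Tox* UMI stand at the left edge.

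Members made up 49.3%, 7.04%, 50%, 57.1%, 32.2% and 76.2% of the proprioceptors of libraries 1 to 6, as 34 of 69, 5 of 71, 6 of 12, 28 of 49, 19 of 59 and 32 of 42 wells. Library 2 had few members and library 6 many, and their exact 95% binomial intervals, 2.33 to 15.7% and 60.5 to 87.9%, did not overlap. Over all libraries the share was 41.1% (exact interval 35.5 to 46.8%), and it was 51.5% without library 2 and 35.4% without library 6. These intervals cover counting error only. The study picked more p1 neurons from the Trpv1Cre; PvFlp; Ai65 mice than from the PvCre; Ai14 mice. The share therefore describes these wells and is not the frequency of the type among p1 proprioceptors. Library 2 also held 39 of the 51 no-*Tox* wells with 50 CPM or more of *Gabrg1*.

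**Figure D2:**
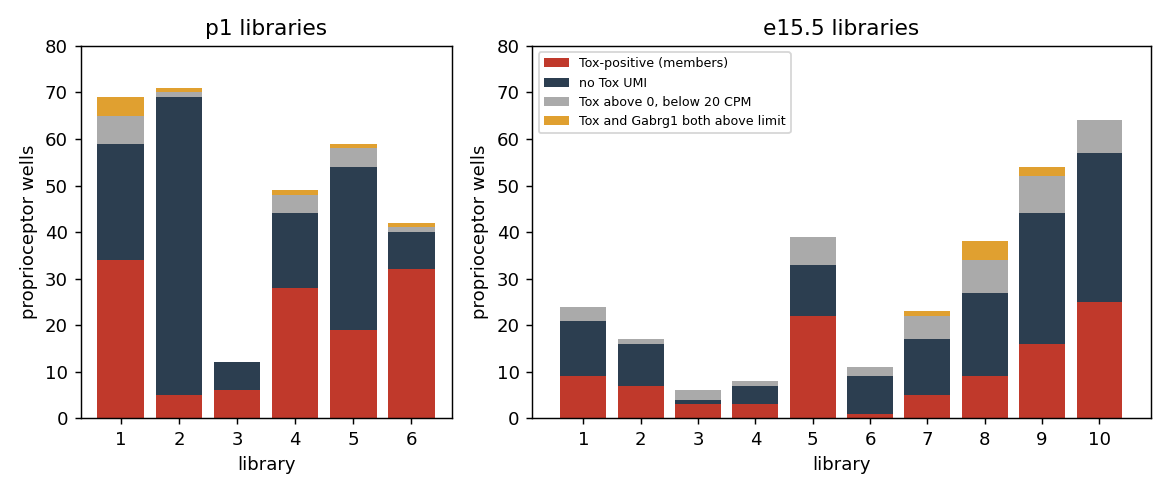
Number of proprioceptor wells (y axis) in each p1 library (left) and e15.5 library (right), stacked by class, with members in red. Members took 5 of 71 wells in p1 library 2 and 32 of 42 in library 6.

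The p1 libraries held 386517 to 8814472 UMIs. Library 3 stood apart as the shallowest, and its summed members and no-*Tox* wells held 80962 and 76373 UMIs, against 138889 to 5808509 in the sums of the other libraries. Members were deeper than no-*Tox* wells in 6 of 6 libraries, with median UMIs of 58297.5 against 44878.5 over all wells (exact sign-flip test over libraries on the library medians, two-sided p = 0.03125, the smallest that 6 pairs allow, and 0.219 after Benjamini-Hochberg adjustment over 14 such measures). A well with few UMIs more often holds no *Tox* UMI, so the rule itself favors deeper members. The sign-flip p-value for depth is therefore no evidence about the cells. The mitochondrial share was lower in the members in 5 of 6. Summed marker genes of other cell types in the members were 25.4 to 152 CPM for 8 nociceptor genes (29.0 to 192 CPM in the no-*Tox* sums), 99.6 to 168 CPM for 5 mechanoreceptor genes (52.4 to 201 CPM), 10.2 to 193 CPM for 8 glia genes (0 to 486 CPM), of which the rule used 2, 2.03 to 526 CPM for 5 fibroblast genes (13.1 to 402 CPM), 0 to 8.13 CPM for 4 endothelial genes (0 to 130 CPM) and 0 to 11.8 CPM for 4 muscle genes (0 to 28.8 CPM). Of these, *Cldn5* of the endothelial list and *Mafa* of the mechanoreceptor list were at 0 in every member. The part of RNA from these cells in the differences below was not tested. Hemoglobin genes, 4 in number, summed to 0.290 to 2053 CPM in members and 0 to 154 CPM in no-*Tox* wells, with the highest member sum in library 5. No 2 wells of p1 had identical counts, and wells with 2 cells were not removed.

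As proprioceptors, the members held *Runx3*, the transcription factor of this lineage that the rule did not use, at 323 ± 59.2 CPM (SD, n = 6 libraries), against 308 ± 50.6 CPM in the no-*Tox* wells, a difference that did not pass the test (log2 0.01, adjusted p = 0.996). Of 16 immediate early and stress genes tested, 0 passed the test, and their median log2 difference was -0.10, against 0.01 over all genes. The other genes of the presumptive back signature were mixed: *Zfhx4* and *Pou2f2* passed and *Epha3* did not. The study chose these genes on these cells, so they are not independent evidence for the label.

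Wells were summed per library and group, and the sums were compared with edgeR's quasi-likelihood test with the library as a block and Benjamini-Hochberg adjustment over 10682 genes. At an adjusted p of 0.05, 118 genes were higher in the members (1.10% of those tested) and 195 lower (1.83%), or 2.93% in all. In 124 of these 313 genes every library pair had the sign of the fit, as had 7.66% of all tested genes. The count rested on single libraries: without library 2 it was 55 higher and 94 lower, without library 4 83 and 128, and without library 5 12 and 58. Without the library block it was 5 and 16. In a second fit the no-*Tox* wells carried the same limit on *Gabrg1* as the members, which leaves 103 of them. Here 123 genes were higher (1.17%) and 188 lower (1.79%) of 10532 tested, or 2.95% in all. Both fits, which share the member sums, called 234 genes. Values of the second fit are given below for some genes only. For the others, the part of the limit on *Gabrg1* in the main difference is not shown.

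The largest log2 difference in favor of the members was that of *Tnfaip8l3*, which codes for a transfer protein of phosphoinositide lipids (GRCm38 chromosome 9, 54023405 to 54068388, minus strand). Its level in the members of libraries 1 to 6 was 12.8, 20.3, 24.7, 13.9, 33.3 and 22.4 CPM, on 44, 10, 2, 22, 48 and 52 UMIs. In the no-*Tox* wells it was 0.460, 3.27, 0, 4.81, 3.15 and 0 CPM, on 1, 19, 0, 2, 6 and 0 UMIs. Every member sum lay above every no-*Tox* sum. The fitted log2 difference was 3.03 ± 0.40 (SE, adjusted p = 1.51e-05), a value that leans on the prior count where a sum is 0. The call was kept without each of the 6 libraries and in each of the 8 alternative fits that gave it a value, which leaves out DESeq2 and the thinned wells. Among the alternatives counted here and below, sums of at least 3 wells repeat the main p1 fit, since every p1 sum held at least 5 wells. *Tnfaip8l3* overlaps 2 genes of the other strand, as do many genes below.

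*Tnni1*, the slow skeletal isoform of troponin I, was at 126, 108, 98.8, 93.6, 107 and 105 CPM in the members and at 28.5, 32.0, 78.6, 38.5, 39.8 and 86.4 CPM in the no-*Tox* wells. The groups did not overlap, and the members were tightly grouped while no-*Tox* libraries 3 and 6 came closest to them. The log2 difference was 1.42 ± 0.19 (adjusted p = 1.52e-05) and passed without each library and in 9 alternative fits, all but the thinned wells, which gave it no value. *Cd24a*, a small surface glycoprotein, was higher by a log2 difference of 1.45 (adjusted p = 0.000133), at 107 to 222 CPM in the members and 29.9 to 170 CPM in the no-*Tox* wells, higher in 6 of 6 pairs although the groups overlapped. *Dlgap1*, a scaffold of the postsynaptic density, was higher by 1.16 (adjusted p = 0.000426) and also in 6 of 6 pairs.

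The other genes that rose in all 6 pairs and were named by the rule had smaller differences or leaned on a library. *Thsd7b*, which codes for a protein with thrombospondin repeats, was at 30.3 ± 16.5 CPM in the members and 11 ± 6.4 CPM in the no-*Tox* wells (log2 1.3, adjusted p = 0.00439, and 0.0912 without library 1). *Heg1*, a transmembrane receptor and the only called gene of a short list of receptor-type genes (1 of 3 tested), was at 81.5 ± 31.0 against 38.2 ± 20.6 CPM (log2 1.13, adjusted p = 0.00149). *Syndig1*, a synaptic protein bound to AMPA receptors, rose by 1.28, *Lxn*, a carboxypeptidase inhibitor, by 1.2 and *Bbs9*, a subunit of the BBSome of cilia, by 1.13 on the log2 scale. *Adcy5*, an adenylyl cyclase, rose by 1.11. Without library 5 the adjusted p was 0.294 for *Syndig1*, 0.236 for *Lxn*, 0.15 for *Bbs9*, 0.0725 for *Adcy5* and 0.0686 for *Heg1*. Without library 2 it was 0.115 for *Bbs9* and 0.082 for *Adcy5*, and *Bbs9* had 0.251 without library 1. *Syndig1* did not pass against no-*Tox* wells limited in *Gabrg1* (adjusted p = 0.08), nor did *Bbs9* (0.0532). *Stc1*, *Lxn*, *Syndig1*, *Bbs9*, *Heg1*, *Dlgap1*, *Pou2f2*, *Zfhx4* and *Hoxa7*, like *Tnfaip8l3*, each overlap a gene on the other strand. The sources used here do not state whether counting used strand, so reads of such partners could not be told apart.

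The largest log2 difference against the members was that of *Stc1*, the secreted glycoprotein stanniocalcin 1 (GRCm38 chromosome 14, 69029238 to 69041804, plus strand). The members held 2.03, 2.03, 0, 1.90, 2.08 and 0.430 CPM in libraries 1 to 6, on 7, 1, 0, 3, 3 and 1 UMIs. The no-*Tox* wells held 9.66, 43.4, 52.4, 19.3, 49.8 and 93.6 CPM, on 21, 252, 4, 8, 95 and 13 UMIs. Every member sum lay below every no-*Tox* sum, with library 1 closest. The log2 difference was -4.35 ± 0.43 (adjusted p = 8.92e-08) and -4.27 against no-*Tox* wells limited in *Gabrg1* (adjusted p = 2.13e-07).

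*Onecut1*, a homeodomain transcription factor (GRCm38 chromosome 9, 74861921 to 74891781, plus strand), was at 6.67, 8.13, 0, 17.7, 8.32 and 11.6 CPM in the members. It was at 39.6, 46.5, 13.1, 67.4, 92.3 and 28.8 CPM in the no-*Tox* wells. Within each library the members were lower, and the groups overlapped only through library 3, whose no-*Tox* value rests on 1 UMI. The log2 difference was -2.63 ± 0.24 (adjusted p = 2.9e-08). Both *Stc1* and *Onecut1* were called without each library and in the 8 alternative fits that gave them a value, again without DESeq2 and the thinned wells.

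**Figure D3:**
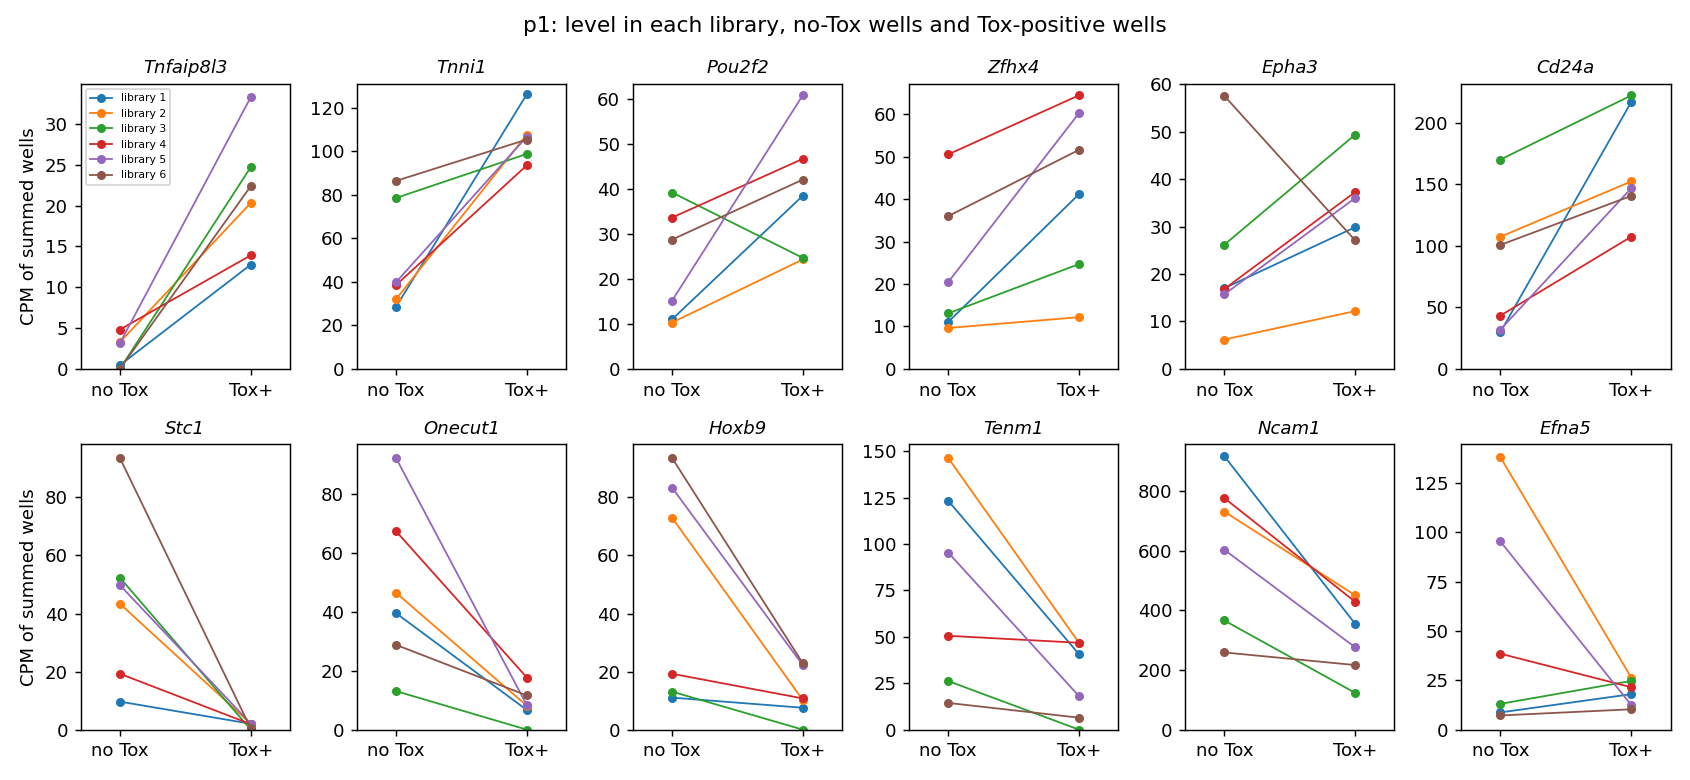
Level in CPM (y axis, from 0) of 12 genes in the summed no-*Tox* wells (left) and members (right) of each p1 library, with 1 line a library. *Tnfaip8l3* and *Tnni1* rise and *Stc1* and *Onecut1* fall in every library, while *Epha3* falls in library 6, *Pou2f2* falls in library 3 and *Efna5* falls in 3 of 6.

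Further genes fell in all 6 pairs. *Hoxb9* was at 12.2 ± 8.82 CPM in the members against 48.9 ± 38.4 CPM in the no-*Tox* wells (log2 -1.77, adjusted p = 4.98e-05). *Tenm1*, a teneurin that joins cells across synapses, was at 26.4 ± 21.0 CPM in the members against 76.0 ± 53.8 CPM, and *Ncam1*, the neural cell adhesion molecule, at 309 ± 127 against 609 ± 253 CPM. Their log2 differences were -1.62 (adjusted p = 8.11e-06) and -1.08 (adjusted p = 3e-06), and both calls held without each library. *Nbea*, a scaffold of vesicle traffic, *Rasgrf1*, an exchange factor for Ras, and *Nav2*, a navigator protein of growing neurites, fell (log2 -1.38, -1.28 and -1.06, adjusted p = 0.00161, 0.0009 and 4.98e-05). *Limch1*, an actomyosin regulator, fell (log2 -1.52, adjusted p = 0.0012). *Htr1b*, a serotonin receptor, *Mllt3*, a chromatin reader, and *Slc38a11*, an amino acid transporter, fell (log2 -1.26, -1.19 and -1.42), and their adjusted p without library 5 was 0.161, 0.323 and 0.156. *Mllt3* had an adjusted p of 0.12 without library 2 and *Slc38a11* of 0.0912 without library 1.

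The neurofilament genes *Nefm*, *Nefl* and *Nefh*, of a family that sets axon caliber, were lower in the members. They were picked out after their values were seen. *Nefm* was at 6378 to 10696 CPM in the members and 8114 to 19049 CPM in the no-*Tox* wells, and *Nefl* at 7704 to 10639 and 8719 to 18810 CPM. Both were lower in 6 of 6 libraries (log2 -0.87 and -0.73, adjusted p = 0.000172 and 0.00109). The 2 genes overlap on opposite strands of chromosome 14. *Nefh*, which lies elsewhere, was lower in 6 of 6 (log2 -0.45, adjusted p = 0.0282), a call lost without library 2 (0.0848), 4 (0.166) or 5 (0.285). *Prph*, another intermediate filament gene of neurons, was higher in 5 of 6 and did not pass (log2 0.10, adjusted p = 0.761). Values of *Ina*, also looked up, are not given.

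*Pou2f2*, the POU factor Oct-2, was at 38.6, 24.4, 24.7, 46.8, 61.0 and 42.2 CPM in the members of libraries 1 to 6 and at 11, 10.3, 39.3, 33.7, 15.2 and 28.8 CPM in the no-*Tox* wells. It was higher in 5 of 6, lower in library 3 on 2 and 3 UMIs, and the groups overlapped (log2 1.25 ± 0.25, adjusted p = 0.00242, and 0.129 without library 5). *Zfhx4*, a zinc-finger homeodomain factor, was higher in 6 of 6, at 12.2 to 64.5 CPM in the members and 9.64 to 50.6 CPM in the no-*Tox* wells (log2 1.01 ± 0.24, adjusted p = 0.0137). Its adjusted p was 0.163 without library 1 and 0.256 without library 5. *Epha3* was at 29.9, 12.2, 49.4, 37.3, 36.0 and 27.1 CPM in the members and 17.0, 6.20, 26.2, 16.9, 15.7 and 57.6 CPM in the no-*Tox* wells. It was higher in 5 of 6 libraries and lower in library 6 (log2 0.66 ± 0.27, adjusted p = 0.211, and 0.0347 without library 6).

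Single wells held few UMIs of these markers, so a well with none does not show that the gene was off. Of the 124 members, 58 held a UMI of each of *Epha3*, *Zfhx4* and *Pou2f2* (46.8%), 39 of 2 of them, 19 of 1 and 8 of none. Of the 154 no-*Tox* wells, 25 held all of them (16.2%) and 41 none. These counts were not thinned, and the members were the deeper wells. After each well was thinned to 20000 UMIs, a step chosen after seeing the data that left out 23 members and 35 no-*Tox* wells, *Pou2f2* was found in 50.5% of members (exact 95% interval 40.4 to 60.6%) and 18.5% of no-*Tox* wells (12 to 26.6%), against 77.4% and 45.5% before thinning. *Zfhx4* was found in 59.4% (49.2 to 69.1%) and 25.2% (17.7 to 34.0%) after thinning, against 76.6% and 44.8% before. *Epha3* was found in 38.6% (29.1 to 48.8%) and 23.5% (16.2 to 32.2%) after thinning, against 64.5% and 40.3% before. *Stc1* was found in 2.97% (0.617 to 8.44%) and 32.8% (24.4 to 42.0%) after thinning, against 9.68% and 43.5% before. Intervals over wells cover counting error only and ignore that wells share a library. All percentages here pool the libraries, and library 2 gave 64 of the 154 no-*Tox* wells but 5 of the 124 members.

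**Figure D4:**
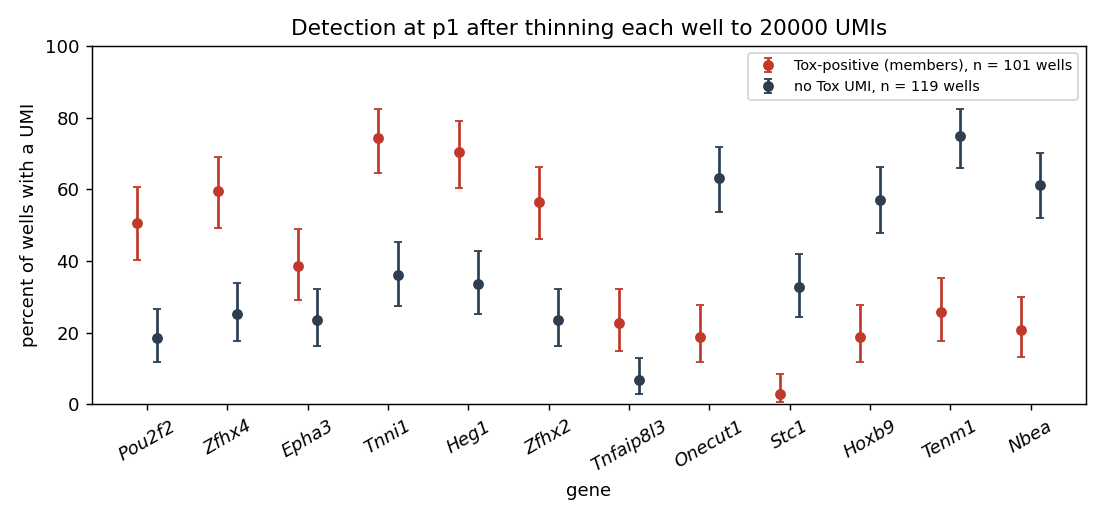
Percent of wells with at least 1 UMI (y axis) of 12 genes after thinning to 20000 UMIs, for 101 members (red) and 119 no-*Tox* wells (dark), with exact 95% binomial intervals as bars. *Stc1* was found in 2.97% of members and 32.8% of no-*Tox* wells, and the intervals of *Epha3* overlap.

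Among transcription factors, 8 TOX, ZFHX and POU genes were tested and 3 were higher, 0 lower, with a median log2 difference of 0.23 (0.01 over all genes, of which 1.10% were higher and 1.83% lower). Of the 3, *Zfhx4* and *Pou2f2* are signature genes that the study chose on these cells. *Zfhx2*, the third ZFHX member, was at 44.1 ± 24.2 CPM in the members against 16.9 ± 11 CPM (log2 1.23, adjusted p = 0.0021, and 0.157 without library 5), and it overlaps an antisense gene, *Zfhx2os*. *Zfhx3* was at 589 ± 60.4 against 475 ± 86.1 CPM and did not pass (adjusted p = 0.316). The *Tox* relatives *Tox3* and *Tox4* did not pass either (log2 0.02 and 0.17). Of 21 sensory neuron factors tested, *Bcl11b*, a zinc-finger repressor, was higher (log2 1.12, adjusted p = 0.0219) and *Onecut1* and *Isl1* were lower. *Isl1*, a LIM-homeodomain factor of sensory neurons, differed by only -0.42 (adjusted p = 0.0489) and lost its call without library 2 (0.158), 3 (0.0847), 4 (0.192) or 5 (0.279). *Bcl11b* lost its call without library 2 (0.235) or 5 (0.177).

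Hox genes, whose levels follow the body axis, were at different levels between libraries in both groups. *Hoxc10* stood at 6.96, 97.6, 12.4, 19.6, 66.5 and 75.3 CPM in the members of libraries 1 to 6 and at 4.60, 48.9, 65.5, 2.41, 57.1 and 36.0 CPM in the no-*Tox* wells. Members of libraries 2, 5 and 6 were high and those of 1, 3 and 4 low, and within libraries the difference did not pass (log2 0.56, adjusted p = 0.239). *Hoxc10* overlaps *Hoxc5* on the same strand, so its reads are uncertain. *Hoxa7* was lower in 5 of 6 libraries, at 132 ± 38.0 against 186 ± 79.6 CPM (log2 -0.80, adjusted p = 0.00149, and 0.0619 without library 5). Of 10 tested genes of paralogue groups 1 to 8 *Hoxa7* alone passed, and of 6 of groups 9 to 13 *Hoxb9* alone, with list medians of -0.37 and -0.19.

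Of 6 EphA receptors tested, *Epha5* and *Epha7* were higher in the members in 6 of 6 libraries and 0 were lower, beside 1.10% higher and 1.83% lower over all genes. *Epha5* was at 44.8 ± 17.5 against 28.1 ± 17.8 CPM (log2 0.92, adjusted p = 0.0206) and *Epha7* at 91.7 ± 22.1 against 47.4 ± 28.0 CPM (log2 0.86, adjusted p = 0.00964). The adjusted p of *Epha5* was 0.167 without library 1 and 0.336 without library 5, and that of *Epha7* 0.0704 without library 2 and 0.259 without library 5. *Epha4*, *Epha6* and *Epha10* did not pass (log2 0.28, -0.15 and 0.23), and the list's median was 0.47.

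The ephrin-A ligand *Efna5*, which the study links to other muscle groups, was at 18, 26.4, 24.7, 21.5, 12.5 and 10.3 CPM in the members. It was at 8.74, 138, 13.1, 38.5, 95.4 and 7.20 CPM in the no-*Tox* wells. The no-*Tox* values of libraries 2 and 5 were far above the rest, and the members were lower in only 3 of 6. The call (log2 -1.35, adjusted p = 0.02) was lost without library 2 (0.322), 3 (0.0515) or 5 (0.499) and against no-*Tox* wells limited in *Gabrg1* (log2 -0.71, adjusted p = 0.327). *Pde1c*, a calmodulin-dependent phosphodiesterase that the study lists for e15.5 subtypes, was lower (log2 -2.53, adjusted p = 6.71e-05), at 0 to 70.8 CPM in the no-*Tox* wells and 0.290 to 12.4 CPM in the members, and lower in 4 of 6.

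Adhesion molecules were counted by family, with 2.93% of all tested genes called in either direction. Of 9 cadherins tested, *Cdh13* was higher and *Cdh12* lower. *Cdh13*, an anchored cadherin without a cytoplasmic part, was at 344 ± 49.3 CPM in the members against 172 ± 91.7 CPM (log2 1.03, adjusted p = 0.00119, higher in 5 of 6). *Cdh12* was at 192 ± 69.7 against 349 ± 173 CPM (log2 -0.91, adjusted p = 5.14e-05, lower in 6 of 6). Against no-*Tox* wells limited in *Gabrg1* the difference of *Cdh13* was 1.76. Of 9 protocadherins, *Pcdh10*, *Pcdh17* and *Pcdh19* were lower (log2 -0.78, -1.14 and -0.73) and 0 higher, with a list median of -0.47. All of these lost the call without library 5 (adjusted p = 0.0725, 0.2 and 0.264), *Pcdh17* and *Pcdh19* also without library 2 (0.0652 and 0.214) and *Pcdh19* without library 4 (0.0501). Of 15 contactins and IgLONs, *Cntn5*, *Ntm* and *Negr1* were lower and 0 higher (log2 -1.94, -0.84 and -0.83, list median -0.15), of which *Cntn5* held without each library. *Ntm* was lost without library 2 (0.171), 3 (0.056) or 5 (0.162) and *Negr1* without library 2 (0.17), 4 (0.116) or 5 (0.198). *Robo1*, a receptor for Slit, was lower (log2 -0.76, adjusted p = 0.0137), and this call was lost without library 2 (0.138) or 5 (0.0949).

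Over all tested genes 2.93% were called in either direction, the share beside which the channel and receptor counts are given. Of 26 potassium channel genes tested, *Kcnc4*, *Kcnd2* and *Kcnip2* were higher (log2 0.98, 1.04 and 0.65) and *Kcnip4* lower (-1.79), with a list median of -0.01. *Kcnd2* codes for the Kv4.2 channel of the A-type current and *Kcnip2* for one of its binding partners. *Kcnip4* was at 9.12 ± 4.73 CPM in the members against 27.3 ± 22.2 CPM and held without each library, while without library 5 the adjusted p of the other potassium channel genes was 0.27, 0.505 and 0.236. *Kcnd2* was also lost without library 1 (0.194), 3 (0.0714) or 4 (0.0521) and *Kcnip2* without library 2 (0.233) or 4 (0.0507). Of 14 HCN, two-pore and mechanotransduction genes *Asic3*, an acid-sensing channel, was higher (log2 1.07, adjusted p = 0.028) and lost its call without library 1 (0.292), 2 (0.151), 3 (0.0519) or 5 (0.198). *Piezo2*, the stretch-gated channel of proprioceptors, was at 1396 ± 273 CPM in the members against 1674 ± 585 CPM and did not pass (log2 -0.35, adjusted p = 0.132).

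GABA-A receptor subunits, the family of *Gabrg1*, were read with care since the rule limits that gene in the members alone. *Gabra2* was at 111 to 157 CPM in the members and 39.3 to 427 CPM in the no-*Tox* wells (log2 -0.90, adjusted p = 0.00169), and at -0.32 against no-*Tox* wells with the same limit (adjusted p = 0.318). *Gabrb1* was at 4.87 ± 3.96 against 19.9 ± 14.5 CPM (log2 -2.38, adjusted p = 0.000139) and was not tested under that limit. Of 18 glutamate receptor and transporter genes, *Gria1* and *Grm7* were higher (1.06 and 0.78) and *Gria3*, *Gria4* and *Grik1* lower (-0.82, -0.84 and -0.58). Each of these calls was lost without library 5, with adjusted p of 0.062, 0.476, 0.437, 0.109 and 0.311. *Gria1* was also lost without library 1 (0.0656), *Gria3* without library 1 (0.0575) or 2 (0.122), *Grik1* without library 1 (0.0718), 2 (0.196) or 4 (0.0838) and *Grm7* without library 1 (0.213), 2 (0.0551), 3 (0.0708) or 4 (0.0633).

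Of 8 genes of secreted peptides and the IGF system, *Spp1*, the matrix protein osteopontin, was higher (log2 1.32, adjusted p = 0.0145) and *Uts2b*, the peptide urotensin 2B, lower (log2 -1.70, adjusted p = 0.000756). *Spp1* was lost without library 1 (0.364) or 5 (0.0725), and *Uts2b* without library 5 (0.0747). Other list members with a call were *S100b* (log2 -0.80), *Scn2b* (-0.57) and *Cacnb3* (0.68), all lost without library 5 (adjusted p = 0.311, 0.115 and 0.293). *S100b* was also lost without library 2 (0.368), 3 (0.136) or 4 (0.0963), *Scn2b* without library 1 (0.112), 2 (0.143), 4 (0.101) or 6 (0.0659) and *Cacnb3* without library 1 (0.113) or 4 (0.0873).

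The same rule was applied to the e15.5 wells, which share no sample with p1. It found 100 members and 135 no-*Tox* wells among 284 proprioceptors, of which 7 libraries with at least 5 wells of each group entered the fit. Median UMIs were higher in the *Tox*-positive wells of e15.5 libraries 1, 5, 7 and 8 and lower in 2, 9 and 10. The gap was widest in library 8, at 154250 against 29868.5. In library 7 the median mitochondrial share was 4.65% in *Tox*-positive and 0.751% in no-*Tox* wells. The part of these gaps in the differences was not tested. At e15.5, 177 of 10448 genes were higher in *Tox*-positive wells (1.69%) and 188 lower (1.80%), or 3.49% in all. Of the 313 p1 calls 259 were tested at e15.5, where 63 were also called (24.3%), 61 of them in the same direction. Of the 365 e15.5 calls 333 were tested at p1, and 18.9% of these were called there. A total of 191 of the 259 had the same sign (73.7%), as had 53.9% of the 9695 genes tested at both ages. The wells of both ages were chosen by the same genes.

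*Tnfaip8l3* was at 14.2 to 33.1 CPM in the e15.5 *Tox*-positive wells and 1.37 to 14.2 CPM in the no-*Tox* wells, higher in 7 of 7 libraries (log2 1.37 ± 0.28, adjusted p = 0.00867), and the difference between the ages did not pass (adjusted p = 0.152). *Stc1* was at 2.25 to 14.9 against 17.4 to 25.9 CPM, lower in 7 of 7 with no overlap (log2 -1.5 ± 0.24, adjusted p = 0.00155). *Onecut1* was at 5.34 to 19.4 against 13.8 to 29.2 CPM, also lower in 7 of 7 (log2 -1.11 ± 0.20, adjusted p = 0.00316). For *Stc1* and *Onecut1* the p1 difference minus that at e15.5 was -2.84 and -1.51, and this change passed its own test (interaction term, adjusted p = 0.0146 and 0.0222). Over all genes this test called 46 genes with a higher difference at p1 (0.387%) and 49 with a lower one (0.412%) of 11898, or 0.798% in all.

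All of the back signature genes passed at e15.5. *Pou2f2* was at 41.3 to 109 CPM in the *Tox*-positive wells and 15.7 to 36.0 CPM in the others, with no overlap (log2 1.51 ± 0.11, adjusted p = 3.75e-07). *Zfhx4* was at 36.8 to 81.0 against 6.11 to 24.6 CPM, again with no overlap (log2 1.63 ± 0.19, adjusted p = 5.87e-05). *Epha3* was at 32.9 to 76.5 against 12.5 to 50.8 CPM, higher in 7 of 7 (log2 1.19 ± 0.19, adjusted p = 0.00144). For none of the 3 did the difference between the ages pass its test (adjusted p = 0.816, 0.467 and 0.592). *Epha4* passed at e15.5 (log2 1.60, adjusted p = 0.000529) and not at p1, and here the ages differed (adjusted p = 0.0327). *Epha5* and *Epha7* were higher at e15.5 by 1.28 and 1.07 (adjusted p = 0.00227 and 0.00745), *Hoxc10* was higher by 0.92 (adjusted p = 2.09e-05) and *Hoxa7* lower (log2 -0.90, adjusted p = 8.95e-06).

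Among genes called at both ages and picked out after their values were seen, *Ust*, a sulfotransferase that modifies chondroitin and dermatan sulfate, was lower at p1 and at e15.5 (log2 -1.92 and -1.45, adjusted p = 3.02e-06 and 1.06e-05). Its p1 call held without each library and in the 8 alternative fits that gave it a value, although the members were lower in only 4 of 6 libraries, with libraries 3 and 6 the exceptions. *Uts2b* was lower at e15.5 (10.2 against 86.3 CPM, means of 7 libraries, log2 -3.02, adjusted p = 3.98e-07). *Nell2*, a secreted guidance protein, was higher by 1.21 at p1 and 1.35 at e15.5 (adjusted p = 0.0031 and 3.75e-07), and at p1 the call was lost without library 1 (0.0642) or 5 (0.0752). *Nr2f2*, an orphan nuclear receptor, was lower at both (log2 -1.09 and -1.78, adjusted p = 0.00684 and 0.0302), at p1 not so without library 2 (0.126) or 5 (0.0919) and at e15.5 not so without library 7 (0.0579), 8 (0.0602), 9 (0.171) or 10 (0.162). *Thsd7b* and *Cdh13* were higher at e15.5 by 2.15 and 2.0 (adjusted p = 3.75e-07 for each). *Zfhx2* was higher by 1.5 at e15.5 (adjusted p = 0.000373).

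Other genes went apart between the ages. *Sema3d*, a secreted guidance cue, was lower at p1 (log2 -0.62, adjusted p = 0.0427) and higher by 1.06 at e15.5 (adjusted p = 3.13e-06, higher in 7 of 7), and the difference of -1.70 passed (adjusted p = 4.18e-05). Its p1 call alone was lost without library 1 (0.145), 2 (0.191), 3 (0.0661) or 5 (0.464). *Syndig1* and *Kcnd2* were at log2 -0.98 and -1.13 at e15.5, where neither passed (adjusted p = 0.0664 and 0.0533), and their change between the ages did (adjusted p = 0.0107 and 0.0191). *Tenm1* and *Ncam1* were at -0.09 and -0.17 at e15.5, did not pass there, and differed between the ages (adjusted p = 0.00593 and 0.00319).

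**Figure D5:**
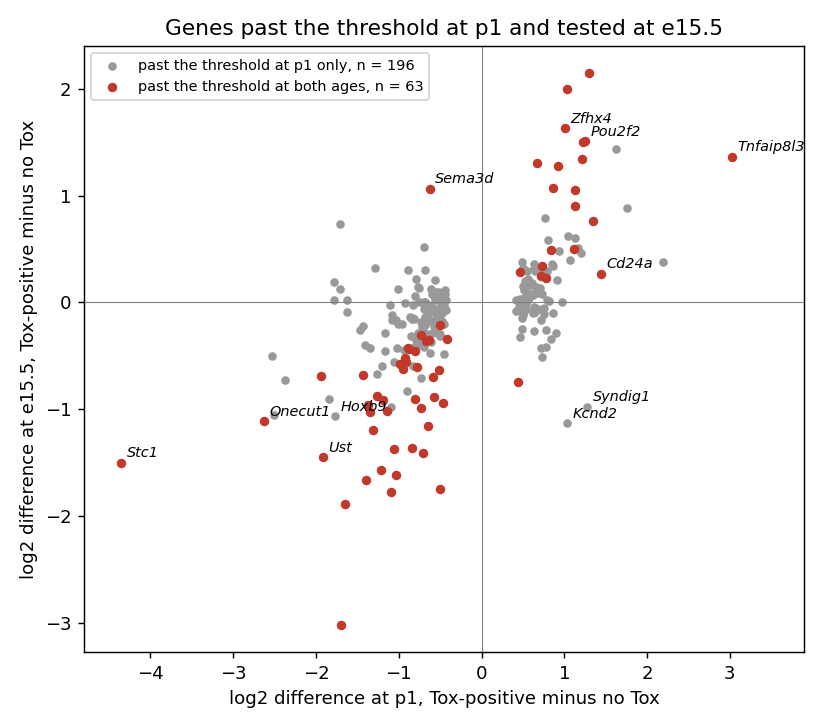
Log2 difference between *Tox*-positive and no-*Tox* wells at p1 (x axis) and at e15.5 (y axis) for the 259 p1 calls tested at both ages, 1 point a gene, with the 63 called at both ages in red. *Stc1* lies at -4.35 and -1.5, *Tnfaip8l3* at 3.03 and 1.37, and *Sema3d* alone among the labelled red points lies in the upper left field.

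Promoter windows are shown for *Tnfaip8l3* and *Onecut1*, whose calls held without each library, and for *Zfhx2*, which was higher at both ages, as were *Pou2f2* and *Heg1*. The windows of *Pou2f2*, *Epha3* and *Heg1* were searched as well and are not shown. They run from 250 bases before to 50 after the start of the gene, on its own strand, as RefSeq gives them on GRCm38.p6, where 55 of 72 genes followed here had an entry. Capitals mark the Onecut core ATCAAT on either strand, which reads ATTGAT on the other. The windows shown lie at chr9:54068362-54068661 (minus strand), chr9:74861671-74861970 (plus strand) and chr14:55091999-55092298 (minus strand).
Tnfaip8l3: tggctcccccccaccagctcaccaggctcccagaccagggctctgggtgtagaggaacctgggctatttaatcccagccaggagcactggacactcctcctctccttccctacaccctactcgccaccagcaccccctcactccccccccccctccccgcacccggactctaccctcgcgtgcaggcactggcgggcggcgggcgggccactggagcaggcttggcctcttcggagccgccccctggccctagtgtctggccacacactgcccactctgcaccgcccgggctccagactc
Onecut1: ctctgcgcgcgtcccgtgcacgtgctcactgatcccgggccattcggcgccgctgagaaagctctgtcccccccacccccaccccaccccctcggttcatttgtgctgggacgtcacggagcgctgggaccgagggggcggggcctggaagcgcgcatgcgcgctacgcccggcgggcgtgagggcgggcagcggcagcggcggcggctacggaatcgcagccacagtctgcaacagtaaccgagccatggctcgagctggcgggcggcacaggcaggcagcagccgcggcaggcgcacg
Zfhx2: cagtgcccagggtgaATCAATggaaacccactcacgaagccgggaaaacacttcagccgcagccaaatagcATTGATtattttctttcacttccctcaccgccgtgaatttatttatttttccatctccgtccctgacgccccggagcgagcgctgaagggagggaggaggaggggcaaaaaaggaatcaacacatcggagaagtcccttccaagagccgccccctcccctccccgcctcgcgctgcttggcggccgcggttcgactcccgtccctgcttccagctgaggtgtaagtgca
The core was found at 2 places in the *Zfhx2* window, 235 and 179 bases before the start. It was at none in the other windows shown or in those of *Pou2f2*, *Epha3* and *Heg1*, and 7.54% of all 32851 windows held it. The octamer ATGCAAAT, the motif bound by Oct-2, was in none of the windows searched and in 1.74% of all windows, on either strand. These matches describe letters only.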

How the data were processed

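The authors made CEL-Seq2 libraries and mapped and counted them with scruff, an R package, and the deposited values are raw UMI counts of each well over 49671 genes. The submitters' processing notes name GRCm38 and mm10; the sources used here do not give the annotation behind the counts. The labels name cell sorting, and the study describes picking by hand at p1. Symbols (49412 genes) and places came from GENCODE M21 (GRCm38).

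Libraries were grouped by age. Counts were summed per library and group (at least 5 wells) and tested with edgeR (version 4.0.16, R version 4.3.3): filterByExpr, TMM, quasi-likelihood F test, library as block, p adjusted by Benjamini-Hochberg across the genes tested and called at 0.05. The rule's own genes and mitochondrial genes stayed in library sizes and out of the test. The 2 sums of a library were treated as a pair: deviations from group means, over 2000 genes, correlated at r = 0.414 to 0.723 within libraries (median -0.257 between). Named genes were the 12 higher and 12 lower calls of largest log2 difference with 1 sign in every pair, a mean of at least 10 CPM in the higher group, no Gm or Rik symbol and no pseudogene, plus the signature genes the study names, every list member past the threshold and up to 4 more of a list by mean CPM. *Ust*, *Nr2f2*, *Nell2*, the neurofilament genes and *Hoxc10* were chosen after their values were seen. Members and lists were chosen with earlier results of these data known.

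Alternatives were no block, DESeq2 (version 1.42.0), no low-count filter, sums of at least 3 or 10 wells, wells thinned to 5000 UMIs, a floor of 20000 UMIs, *Tox* of at least 50 CPM or 2 UMIs, the study's quantile limits, and each library left out. Leaving libraries out of the member share and thinning to 20000 UMIs for detection were chosen after seeing the data. Other steps used Python (version 3.11.15), NumPy (version 2.4.6), pandas (version 2.3.3), SciPy (version 1.17.1) and Matplotlib (version 3.10.9). Of the 313 p1 calls 31 are annotated as processed, 5 as transcribed processed and 1 as transcribed unprocessed pseudogenes. Such copies can share reads with their parent genes, so none is named.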

Additional observations from a re-analysis of the deposited data

Results flagged for a closer look

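In 7 of 146 groups of 6 library values the highest or lowest library stood far from the rest by Dixon's test at the 95% level, where chance flags about 1 in 20. Among members, library 3 was far above the others for *Tox* (161 CPM), *Robo1* (86.5 CPM) and *Pcdh19* (185 CPM), and library 2 far below them for *Epha7* (48.8 CPM). Among no-*Tox* wells, library 6 was far above the others for *Gria1* (93.6 CPM), *Grm7* (50.4 CPM) and *Nell2* (57.6 CPM). Library 3 held the fewest UMIs of all and the no-*Tox* sum of library 6 held 138889.

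The log2 difference between *Tox*-positive and no-*Tox* wells changed from e15.5 to p1, by the test of the change itself, in 10 of the genes followed. Of the 72 genes followed at p1, 69 were past the threshold there, and the test of change uses the same p1 sums. The 10 are therefore not comparable with the 0.798% called over all 11898 genes. At p1 the difference was above that at e15.5 by 1.23 for *Cd24a*, 2.27 for *Syndig1* and 2.17 for *Kcnd2*. It was below it, with p1 minus e15.5 at -2.84 for *Stc1*, -1.51 for *Onecut1*, -1.52 for *Tenm1*, -1.60 for *Rasgrf1*, -0.91 for *Ncam1*, -1.70 for *Sema3d* and -1.31 for *Epha4*. Age, mouse line and way of isolation cannot be told apart in these changes.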

How the results depend on the processing

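The 72 genes followed at p1 kept their direction in every alternative and with each library left out, but calls were lost in 216 of 628 alternative values and 104 of 431 with a library left out. The 628 include sums of at least 3 wells, which at p1 repeat the main fit and could lose no call. With no replicate block, which drops the pairing of sums by library, the p1 comparison called 5 genes higher and 16 lower, with the limit on *Gabrg1* 6 and 6, the e15.5 comparison 71 and 99 and the change between ages 2 and 5. With DESeq2 the first gave 55 and 96, the second 71 and 124 and the change between ages 73 and 92. Sums of at least 10 wells left 3 p1 libraries and 13 and 26 calls. Wells thinned to 5000 UMIs left 1982 genes and 10 and 27 calls at p1, and 1120 genes and 13 and 6 at e15.5. *Tox* of at least 2 UMIs gave 51 and 121 and of at least 50 CPM 69 and 124. No filter on low counts gave 400 and 446 at e15.5 and 150 and 133 for the change between ages. The member share was 16.2% by 1 UMI after thinning to 5000 UMIs and 29.1% at 50 CPM.

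With each library left out, p1 calls ranged from 12 to 146 higher and 58 to 256 lower, those with the limit on *Gabrg1* from 33 to 129 and 75 to 211, e15.5 calls from 108 to 194 and 113 to 198, calls of change between ages from 15 to 99 and 12 to 104, and the member share from 35.4 to 51.5%. The lowest p1 counts were without library 5, and for the change between ages the highest were without library 1. The e15.5 difference of *Tenm1*, not called, ranged from -0.19 to 0.0057 with each e15.5 library left out (0.0057 without library 1). The causes were not tested. A member's *Tox* call rested on few UMIs, and library 3 limits what low genes can show.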

Other observations

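The 8 proprioceptors with both *Tox* and *Gabrg1* above their limits entered no comparison. Summed over libraries, they held 18.1 CPM of *Tnfaip8l3*, 70.0 CPM of *Pou2f2*, 57.0 CPM of *Zfhx4*, 2.59 CPM of *Stc1* and 10.4 CPM of *Onecut1*, next to 19.0, 43.5, 49.0, 1.60 and 10 CPM in the summed members. For *Efna5* and *Gabra2* they held 85.5 and 272 CPM, next to 16.3 and 129 CPM in the members and 157 and 478 CPM in no-*Tox* wells with 50 CPM or more of *Gabrg1*. The 16 wells with *Tox* above 0 and below 20 CPM held 10 CPM of *Tnfaip8l3*, 15.6 CPM of *Stc1* and 26.1 CPM of *Onecut1*, between the summed members and the no-*Tox* wells below 50 CPM of *Gabrg1* (2.26, 25.8 and 59.0 CPM). Unlike the 2 groups beside them, the 16 wells carried no limit on *Gabrg1*, which reached 674 CPM in a well of library 5. All sums in this paragraph have no replicates and weight libraries by their wells.

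*Chodl* was found in 4 of 124 members and 33 of 154 no-*Tox* wells, and *Trpv1* itself in 2 of 124 and 4 of 154. These counts pool the libraries and were not compared within library. Library 2 gave 64 of the 154 no-*Tox* wells and 5 of the 124 members, so the mix of libraries differs between the groups.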
